A study of Homo sapiens with 6 samples.

Results

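The 10 genes described here encode the myosin phosphatase and the proteins that act on it or against it in human cells. They were PPP1R14A, PPP1R14B, PPP1R14C, PPP1R14D, PPP1R12A, PPP1R12B, PPP1R12C, PPP1CB, MYLK and ROCK1. They were picked by name from the 57123 genes in the count tables, with their difference between the genotypes already known, and all 10 were among the 25125 genes with enough counts to be tested. HEK293 is a line derived from human embryonic kidney. MUL1 is a ubiquitin ligase of the mitochondrial outer membrane. RNA was sequenced from 3 HEK293 WT libraries and 3 HEK293 MUL1(-/-) libraries, in which MUL1 was inactivated, and both lines were grown in the same medium with no treatment. How many clones or separate cultures the 3 libraries of each genotype stand for is not given in the sources used here, so the spread between them may be technical.

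Contraction of actin filaments by non-muscle and smooth muscle myosin II is switched on when the regulatory light chain of myosin is phosphorylated. Myosin light chain kinase, the product of MYLK, and the kinase ROCK1 add this phosphate. Myosin phosphatase removes it. The phosphatase joins a catalytic subunit of protein phosphatase 1, the delta isoform encoded by PPP1CB, to a targeting subunit from the PPP1R12 family, which brings the enzyme to myosin. The PPP1R14 genes encode small inhibitor proteins that, once phosphorylated, block the catalytic subunit. ROCK1 also phosphorylates targeting subunits and inhibitors, which lowers the activity of the phosphatase.

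The 250 bases upstream of the RefSeq start are described for the 4 inhibitor genes, which range from abundant to nearly absent and of which 1 was lost in MUL1(-/-), and for PPP1R12C, the targeting subunit with the largest difference between the genotypes. In the annotation used for counting, PPP1R14A begins further upstream, and 217 of the 250 bases of its window lie within its own exon bins 1 and 2, so its window is not printed. The windows of PPP1R14B, PPP1R14C and PPP1R12C lie wholly outside their genes' bins, and that of PPP1R14D overlaps by 1 base. They come from RefSeq (GRCh38.p14), in which all 10 members had an entry, and are written 5′ to 3′ on the strand of the gene. Capitals mark GC boxes, the letters GGGCGG or their reverse complement CCGCCC, a motif searched on both strands.
PPP1R14B: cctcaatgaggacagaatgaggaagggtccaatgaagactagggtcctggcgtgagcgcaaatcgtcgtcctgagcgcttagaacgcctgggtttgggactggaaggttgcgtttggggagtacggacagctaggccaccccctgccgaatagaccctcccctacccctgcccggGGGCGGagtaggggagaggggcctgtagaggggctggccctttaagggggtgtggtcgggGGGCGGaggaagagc
PPP1R14C: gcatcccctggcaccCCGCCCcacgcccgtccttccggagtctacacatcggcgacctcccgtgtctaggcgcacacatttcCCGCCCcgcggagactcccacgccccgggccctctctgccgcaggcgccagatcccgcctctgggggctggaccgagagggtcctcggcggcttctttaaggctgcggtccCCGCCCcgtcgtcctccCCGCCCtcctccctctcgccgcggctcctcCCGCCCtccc
PPP1R14D: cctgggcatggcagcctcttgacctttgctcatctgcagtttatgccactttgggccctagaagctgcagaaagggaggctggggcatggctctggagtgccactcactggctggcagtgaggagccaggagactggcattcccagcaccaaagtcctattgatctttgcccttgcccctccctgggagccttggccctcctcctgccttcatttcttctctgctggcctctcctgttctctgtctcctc
PPP1R12C: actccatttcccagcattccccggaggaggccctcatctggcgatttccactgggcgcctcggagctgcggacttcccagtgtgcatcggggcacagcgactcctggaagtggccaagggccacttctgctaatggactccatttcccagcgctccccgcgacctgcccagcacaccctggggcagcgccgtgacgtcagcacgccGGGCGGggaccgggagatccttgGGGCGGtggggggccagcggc
The windows lie on the minus strand at chr19:38256375-38256624 for PPP1R14A, chr11:64246944-64247193 for PPP1R14B, chr15:40828709-40828958 for PPP1R14D and chr19:55117638-55117887 for PPP1R12C. The window of PPP1R14C lies on the plus strand at chr6:150142794-150143043. PPP1R14A held 4 GC boxes, PPP1R14B 2, PPP1R14C 5, PPP1R12C 2 and PPP1R14D 0, while 42.6% of 35116 upstream windows held at least 1. The number of CG dinucleotides was 27 for PPP1R14A, 13 for PPP1R14B, 28 for PPP1R14C, 19 for PPP1R12C and 0 for PPP1R14D, against a median of 11 over all windows, of which 6.1% had none. PPP1R14A and PPP1R14C thus had like windows by both counts, and PPP1R14D stood apart from the other inhibitor genes. The CArG box, the site of serum response factor, which drives smooth muscle genes, was searched on both strands and was in none of these 5 windows. It was in 1.16% of all windows, and of the members only MYLK had it in a listed window. These matches describe the letters of the windows only.

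Counts summed over genes were 121917971 to 142803296 per library, and scaling factors (TMM) were 0.946 to 0.992 in WT and 1.02 to 1.03 in MUL1(-/-). Levels are given as CPM, each library's counts scaled to a common total, after this factor was applied, and 3 counts correspond to 0.0210 to 0.0246 CPM before it, a limit that covers counting error only. MUL1 itself was at 15.4, 15.2 and 19.0 CPM in WT and 18.7, 16.7 and 19.2 CPM in MUL1(-/-), so its RNA did not check the genotype labels. The 6 markers of HEK293 cells (PAX2, NEFL, NEFM, VIM, KRT8, KRT18) summed to 1292 to 1511 CPM in WT and 922 to 1098 CPM in MUL1(-/-). Within them PAX2 fell from 9.46 ± 1.48 to 2.72 ± 0.725 CPM and NEFM rose from 1.74 ± 0.0852 to 3.64 ± 0.448 CPM. The largest falls in CPM were those of VIM, from 842 ± 93.1 to 665 ± 61.7, and KRT8, from 324 ± 18.7 to 170 ± 12.1. NEFL and KRT18 did not pass an adjusted p under 0.05. The 5 smooth muscle markers (ACTA2, CNN1, TAGLN, MYH11, DES) summed to 13.3 to 15.5 and 13.9 to 14.5 CPM, and the 3 fibroblast markers (COL1A1, DCN, LUM) to 22.1 to 27.0 and 26.2 to 32.4 CPM. The smooth muscle sum held opposite changes, since ACTA2 fell from 6.06 ± 1.01 to 4.43 ± 0.549 CPM and TAGLN rose from 2.61 ± 0.173 to 3.67 ± 0.0260 CPM. CNN1, MYH11 and DES did not pass an adjusted p under 0.05. Opposite changes were also held in the fibroblast sum. LUM rose from 1.11 ± 0.0766 to 9.45 ± 2.59 CPM and DCN from 1.19 ± 0.0408 to 2.92 ± 0.439 CPM, while COL1A1 fell from 21.9 ± 2.53 to 16.8 ± 1.91 CPM. Markers of endothelium (PECAM1, CDH5) summed to 0.0157 to 0.0990 CPM in WT and 0.218 to 0.332 CPM in MUL1(-/-), and those of blood (PTPRC, HBB) to 0.141 to 0.325 and 0.403 to 0.519 CPM. PECAM1 and PTPRC rose, by 2.06 and 1.94 on the log2 scale, at these low levels. Both had enough counts for testing in all 3 libraries only in MUL1(-/-). HBB went the other way, from 0.165 ± 0.0896 to 0.0930 ± 0.0249 CPM (-0.81 on the log2 scale), and did not pass an adjusted p under 0.05. No list was at 0 throughout, and CDH5 was the 1 defining marker at 0 in a library. The part of these shifts in the results below was not tested. In bulk RNA, fewer cells expressing a gene and less RNA per cell cannot be told apart.

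PPP1R14A was nearly lost from the MUL1(-/-) libraries, PPP1R12C was about doubled, and the catalytic subunit and the main targeting subunit PPP1R12A moved by less than 0.1 on the log2 scale. An adjusted p under 0.05 with an absolute log2 fold change above 1, the thresholds of the study, was met by 3 of the 10 members, beside 8.11% of all genes tested. These were 2 higher in MUL1(-/-), PPP1R12C and PPP1R14D, and 1 lower, PPP1R14A, beside 4.23% higher and 3.87% lower of all genes. The adjusted p alone was met by 4 members, with PPP1R14B added, beside 37.5% of all genes. WT and MUL1(-/-) libraries were fully separated in 4 members, the same ones, as they were in 48.5% of all genes. The members were named with this contrast in view, so their values are a description and nothing is read from these counts. The median log2 fold change was -0.058 over the members and -0.0098 over all genes tested, and 7 of the 10 members had an absolute value under 0.5.

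Among the inhibitors, PPP1R14A (ENSG00000167641) encodes CPI-17, the inhibitor known best from smooth muscle, on the minus strand of chromosome 19 from 38251237 to 38256591 (GRCh38). It was at 19.4, 18.5 and 17.8 CPM in WT and 0.308, 0.200 and 0.242 CPM in MUL1(-/-), from 2470, 2618 and 2243 against 39, 25 and 30 counts. Every MUL1(-/-) library was far below every WT library, and all were above the limit that a count of 3 sets. The means were 18.6 ± 0.820 and 0.250 ± 0.0547 CPM (SD, n = 3), a 74.3-fold lower level. The log2 fold change was -6.21 (SE 0.15), and it lay between -6.96 and -6.06 under 16 alternative analyses.

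PPP1R14B (ENSG00000173457), which encodes the widely expressed inhibitor PHI-1, lies on chromosome 11 from 64244480 to 64246938. It was at 90.0, 80.5 and 90.8 CPM in WT and 105, 95.6 and 103 CPM in MUL1(-/-). The MUL1(-/-) libraries were all higher, by a log2 fold change of 0.22 (SE 0.07). When each gene was represented by its most counted exon bin alone, this value was 0.49. Without WT replicate 2 it was 0.16, and the adjusted p was not met without WT replicate 1, WT replicate 2 or MUL1(-/-) replicate 1.

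PPP1R14C (ENSG00000198729), the gene of the inhibitor KEPI, lies on chromosome 6 from 150143076 to 150250357. It was at 38.5, 35.4 and 34.5 CPM in WT and 34.9, 35.2 and 37.3 CPM in MUL1(-/-), and the genotypes overlapped fully. The fitted difference was -0.014 (SE 0.07) on the log2 scale, and its sign turned under library totals in place of TMM (0.058) and without a filter on low counts (0.018).

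PPP1R14D (ENSG00000166143), the gene of an inhibitor known from the gut, lies on chromosome 15 from 40815445 to 40828709 and was close to absent. It had 15, 7 and 12 counts in WT and 21, 23 and 22 in MUL1(-/-), or 0.118, 0.0495 and 0.0953 against 0.166, 0.184 and 0.178 CPM. The MUL1(-/-) libraries were higher, with a log2 fold change of 1.01 (SE 0.38), barely past the threshold. Only in MUL1(-/-) did all 3 libraries have enough counts for testing. Entry to the test thus rests on the genotype where PPP1R14D was higher. Without WT replicate 2, the lowest library, the value was 0.71, and the gene passed both thresholds in 1 of the 6 analyses that left out a library.

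Among the targeting subunits, PPP1R12A (ENSG00000058272) encodes MYPT1, the subunit of the main myosin phosphatase of smooth muscle and most other cells, on chromosome 12 from 79773563 to 79935460. It was at 93.3, 92.0 and 97.9 CPM in WT and 83.5, 97.0 and 91.5 CPM in MUL1(-/-). The ranges overlapped, and the log2 fold change was -0.058 (SE 0.07), or 0.011 with library totals.

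PPP1R12B (ENSG00000077157), the gene of the heart and brain subunit MYPT2, lies on chromosome 1 from 202348699 to 202592706. It was at 26.1, 26.5 and 21.7 CPM in WT and 23.5, 22.9 and 20.6 CPM in MUL1(-/-), with a log2 fold change of -0.15 (SE 0.09). WT replicate 3 lay among the MUL1(-/-) libraries. Without that library PPP1R12B had a log2 fold change of -0.24, and the adjusted p was met. A single bin at the 3′ end, of 11554 bases and shared with an exon of another gene, took 46.6% of its counts in WT and 44.6% in MUL1(-/-).

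PPP1R12C (ENSG00000125503) encodes MBS85, a targeting subunit of wide expression, on the minus strand of chromosome 19 from 55090913 to 55117559. The gene is known in cell engineering because its opening intron is a common place to insert transgenes. It was at 50.7, 44.8 and 58.1 CPM in WT and 111, 103 and 106 CPM in MUL1(-/-). Every MUL1(-/-) library was well above every WT library. The means were 51.2 ± 6.67 and 106 ± 4.02 CPM (SD, n = 3), a 2.08-fold higher level with a log2 fold change of 1.06 (SE 0.09). Without WT replicate 2 the log2 fold change was 0.96, just under the threshold of 1. The members nearest to that threshold were thus PPP1R14D and PPP1R12C inside it and MYLK, at an absolute value of 0.27, outside it.

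The catalytic subunit and ROCK1 differed little, and MYLK did not pass the adjusted p with all libraries. PPP1CB (ENSG00000213639, chromosome 2 from 28751640 to 28802940) was at 64.3, 64.5 and 65.8 CPM in WT and 56.6, 65.1 and 63.6 CPM in MUL1(-/-), a log2 fold change of -0.071 (SE 0.07). Without MUL1(-/-) replicate 1 the PPP1CB difference was 0.00142. ROCK1 (ENSG00000067900, chromosome 18 from 20946906 to 21111851) was at 62.1, 60.7 and 62.6 CPM in WT and 56.0, 62.6 and 59.3 CPM in MUL1(-/-), a log2 fold change of -0.059 (SE 0.07) and of 0.011 with library totals. In both genes MUL1(-/-) replicate 1 was the lowest library, and the others overlapped. MYLK (ENSG00000065534, chromosome 3 from 123610049 to 123884331) was at 8.78, 8.66 and 7.10 CPM in WT and 6.47, 6.50 and 7.35 CPM in MUL1(-/-). The difference was -0.27 (SE 0.11) on the log2 scale, and MUL1(-/-) replicate 3 exceeded WT replicate 3. It was negative in all 16 alternatives. The adjusted p was met without WT replicate 3, at -0.37, and without MUL1(-/-) replicate 3, at -0.33.

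Per kilobase of summed exon bins, the levels in WT ran from PPP1R14B at 52.7 ± 3.48 CPM per kb through PPP1R14C at 16.8 ± 0.975, PPP1R14A at 12.4 ± 0.547, PPP1CB at 12.2 ± 0.158, PPP1R12A at 7.99 ± 0.261, PPP1R12C at 6.63 ± 0.864 and ROCK1 at 5.56 ± 0.0900 CPM per kb. Below these stood PPP1R12B at 1.19 ± 0.128, MYLK at 0.369 ± 0.0422 and PPP1R14D at 0.1003 ± 0.0400 CPM per kb. PPP1R14A and PPP1CB were the neighbours in this order whose means lay within 1 SD of each other. In MUL1(-/-), PPP1R14A was last at 0.167 ± 0.0364 CPM per kb, within 1 SD of PPP1R14D at 0.201 ± 0.0103. PPP1R12C had moved up to 13.8 ± 0.520 CPM per kb, above PPP1CB at 11.7 ± 0.861. A read that touches several bins appears to have been counted in each, which would raise these levels more in genes with many short exons.

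The make-up of both families followed. PPP1R14A made up 15.1 ± 0.807% of the summed PPP1R14 level per kb in WT and 0.212 ± 0.0397% in MUL1(-/-), while PPP1R14B went from 64.3 ± 1.77% to 78.2 ± 0.920%. PPP1R14C held 20.5 ± 1.01% and 21.3 ± 0.939%, and PPP1R14D 0.121 ± 0.0435% and 0.258 ± 0.0228%. The family sum itself was 82.0 ± 4.05 CPM per kb in WT and 78.2 ± 3.15 CPM per kb in MUL1(-/-), a difference of the size of the spread between libraries. In the PPP1R12 family, PPP1R12A was the largest component in WT at 50.6 ± 1.66% and fell behind PPP1R12C in MUL1(-/-), at 34.1 ± 2.50% against 61.2 ± 2.40%. PPP1R12C had been at 41.8 ± 2.81% in WT, and PPP1R12B went from 7.55 ± 1.24% to 4.75 ± 0.321%. The PPP1R12 sum was 15.8 ± 0.999 CPM per kb in WT and 22.5 ± 0.0887 in MUL1(-/-). The ratio of inhibitor to targeting subunit sums was 5.44, 5.22 and 4.93 in WT and 3.57, 3.30 and 3.56 in MUL1(-/-), with no overlap. It is a ratio of RNA levels and was not tested, since the members were chosen with this contrast in view. The order of PPP1R12A and PPP1R12C depends on the measure. With most counted bins, PPP1R12C was already the larger part in WT at 55.9%, and without length scaling it was 30.0% in WT and 48.5% in MUL1(-/-).

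**Figure D1:**
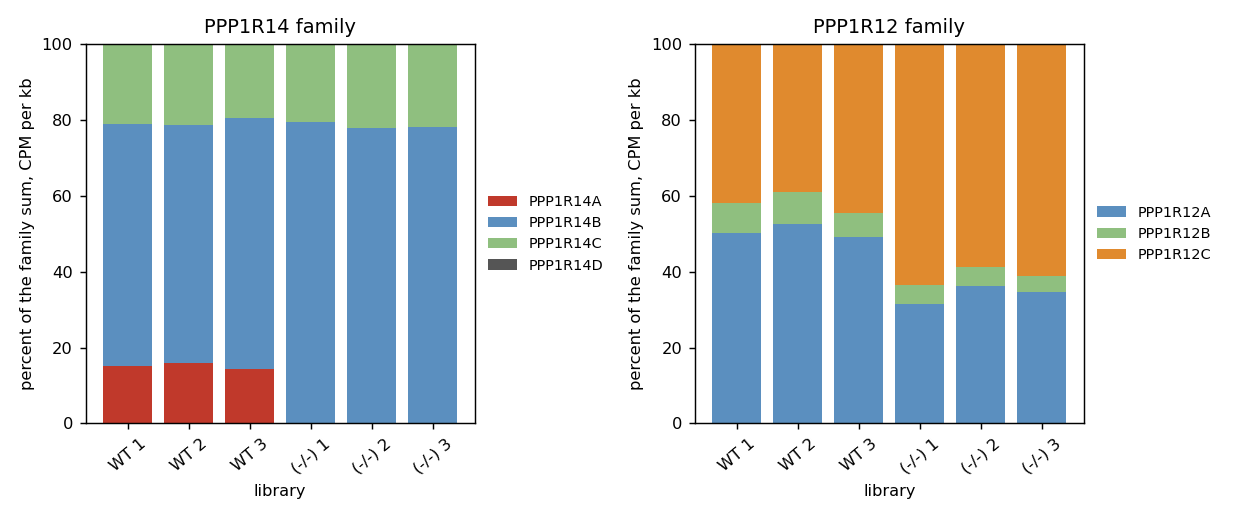
Percent of the family sum of CPM per kb (vertical axis) held by each PPP1R14 and PPP1R12 gene in each of the 6 libraries (horizontal axis). PPP1R14A takes 14.3 to 15.9% in WT and under 0.256% in MUL1(-/-), and PPP1R12C takes 39.0 to 44.6% in WT and 58.8 to 63.6% in MUL1(-/-).

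The counts by exon bin show where in each gene the difference lay. An exon bin is a stretch of exon between annotated boundaries, and usage is the share of the gene's counts in a bin. The members had 341 bins, of which 269 had enough counts to be tested, and 5 changed in usage at an adjusted p under 0.05 (4 higher and 1 lower in MUL1(-/-)), beside 1.48% of all bins tested. All 5 were in PPP1R14A and PPP1R12C, the genes with the largest differences in counts. None of the 6 bins of PPP1R14D had enough counts.

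In PPP1R14A all 9 bins were lower in every MUL1(-/-) library than in every WT library. The smallest difference was in bin 4, from 38252975 to 38253257, which had 11, 14 and 12 counts in WT and 9, 4 and 3 in MUL1(-/-). Bin 7, from 38251865 to 38252305, had 30, 35 and 37 counts in WT and 8, 5 and 8 in MUL1(-/-). Each adjoins a well-covered bin and was itself sparsely covered in WT, with 1.91 ± 0.264% of the gene's counts together, against 38.8 ± 4.20% in MUL1(-/-). The other 7 bins were at 18.2 ± 0.853 CPM in WT and 0.152 ± 0.0231 CPM in MUL1(-/-), 120-fold lower. In MUL1(-/-) these 7 bins had 22, 16 and 19 counts in all, against 17, 9 and 11 in bins 4 and 7. Bin 8 was the 1 bin lower in usage, from 16.4 ± 0.927% to 3.04 ± 2.69%, on 2, 1 and 0 counts in MUL1(-/-).

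In PPP1R12C the difference ran along the whole gene. Of its 44 tested bins, 43 were higher in every MUL1(-/-) library than in every WT library, with folds of the means from 1.41 to 4.41 over the 44. Bins 1 and 2, which form the exon at the 5′ end of the gene (55117223 to 55117559), had the largest folds. They were at 1.51, 1.16 and 1.67 CPM in WT and 6.68, 4.74 and 5.67 CPM in MUL1(-/-), a 3.93-fold higher level, against 2.02-fold in the other 42 bins. Bin 1 took 1.18 ± 0.0542% of the gene's counts in WT and 2.50 ± 0.362% in MUL1(-/-), and bin 2 took 1.64 ± 0.160% and 2.84 ± 0.350%. For each of 16024 genes, the tested bin of at least 50 bases that lies nearest the 5′ end was taken, whether or not it was the gene's bin 1. Its usage was higher in MUL1(-/-) in 59.8% of these genes, 3.14% passed the test in that direction and 0.805% in the other. A relative change as large as that of PPP1R12C (0.76 on the log2 scale) was seen in 1.29% of these genes. On the same scale PPP1R14A had a larger value, 0.93 in bin 1, on 1, 1 and 3 counts in MUL1(-/-), and PPP1CB was at 0.48 in bin 9. PPP1R14B, ROCK1 and PPP1R14C were at 0.18, 0.16 and 0.11 in bin 1, and PPP1R12A (bin 2), PPP1R12B (bin 3) and MYLK (bin 11) at 0.022, -0.042 and -0.098. Of these 9 members, PPP1R12C was the 1 that passed the test in that bin.

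The members lie on 9 chromosomes, and the genes beside them were compared as a further measure. PPP1R14A lies within the span of SPINT2 (38244035 to 38292614), an inhibitor of serine proteases read from the plus strand, and none of its 9 bins overlaps a SPINT2 bin. SPINT2 was at 149, 138 and 131 CPM in WT and 22.6, 21.5 and 26.8 CPM in MUL1(-/-), a log2 fold change of -2.56 (SE 0.09). Whether the counting used strand is not given in the sources used here, and without strand the reads of SPINT2 introns and of PPP1R14A cannot be told apart. Of the 23 bins of SPINT2, 22 lie at higher coordinates than PPP1R14A and 1 at lower ones. The potassium channel gene KCNK6, the third tested gene to the higher side, went from 1.77 ± 0.125 to 0.327 ± 0.0393 CPM, a log2 fold change of -2.43 (SE 0.18). SPINT2 and KCNK6 were the 2 of the 20 nearest tested genes that passed both thresholds, both as lower, beside 3.87% of all genes tested. The median over the 20 was 0.066, with 11 higher and 9 lower in MUL1(-/-), and it was -0.19 over the nearest 10.

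Around PPP1R12C the picture differed. Of its 20 nearest tested genes 17 were higher and 3 lower in MUL1(-/-). Their median log2 fold change was 0.55, and 0.68 over the nearest 10, beside -0.0098 over all genes tested. Of the 20 neighbours, 3 passed both thresholds, all higher, beside 4.23% of all genes tested. They were GP6 (1.88, from 0.157 ± 0.0402 to 0.582 ± 0.176 CPM), PTPRH (1.45, from 0.322 ± 0.0607 to 0.882 ± 0.275 CPM) and the gene ENSG00000267149 (1.69). The medians around the other 8 members lay between -0.18, at PPP1R14B, and 0.28, at PPP1R12A. In the window of PPP1R12A 7 of 20 neighbours passed both thresholds as higher, beside 4.23% of all genes tested, while PPP1R12A itself was at -0.058.

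**Figure D2:**
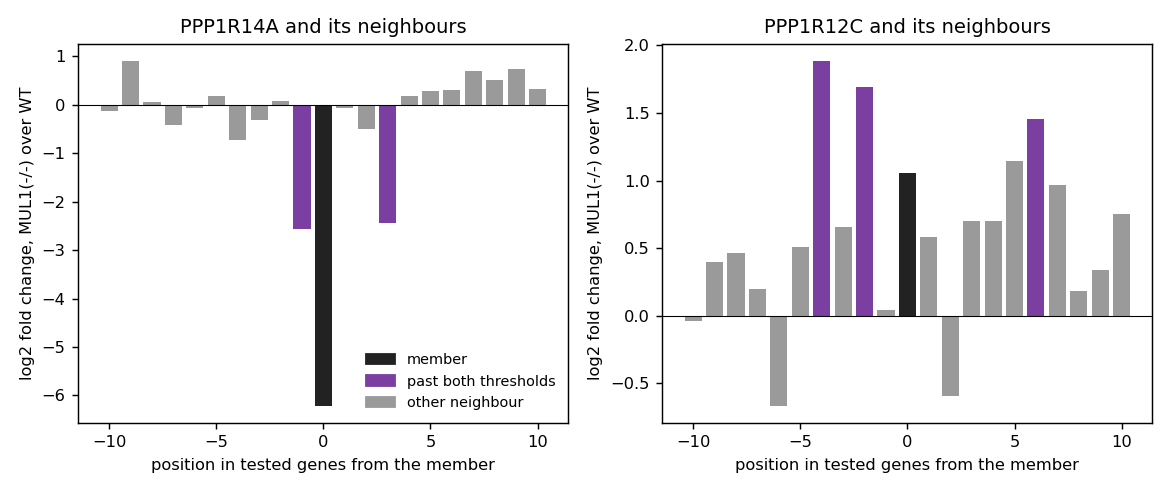
Log2 fold change, MUL1(-/-) over WT (vertical axis), of the 10 tested genes on each side of PPP1R14A and PPP1R12C, ordered by their starts along chromosome 19 (horizontal axis). SPINT2 and KCNK6, at -2.56 and -2.43, are the neighbours of PPP1R14A past both thresholds, while 17 of the 20 neighbours of PPP1R12C lie above 0.

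The wider pathway was described with 64 further genes in 5 lists, all of them tested. An adjusted p under 0.05 (edgeR's quasi-likelihood test, Benjamini-Hochberg over all genes) was reached by 17 genes as higher and 13 as lower in MUL1(-/-), and 34 did not pass. The genes that passed were 46.9% of the 64, beside 37.5% of all genes tested. Both thresholds were passed by 4 of them as higher and 1 as lower, or 7.81%, beside 8.11% of all genes tested. Of these, ACTG2, MYOCD, PPP1R1B and MYL9 had enough counts for testing in all 3 libraries only in the genotype where they were higher. Their direction is therefore not independent of being tested, and nothing is read from this share. The median log2 fold change was 0.065 over the 64 genes and -0.0098 over all genes tested. Every list with more than 1 gene past the adjusted p held genes moving both ways.

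The other subunits and inhibitors of protein phosphatase 1 numbered 11, of which 4 rose and 3 fell at the adjusted p. PPP1CC, the gamma catalytic isoform, was far more abundant than PPP1CB and fell from 411 ± 14.9 to 328 ± 16.0 CPM (log2 fold change -0.32, SE 0.07, adjusted p = 0.00113). PPP1R2, which encodes inhibitor-2, rose from 41.1 ± 3.39 to 55.5 ± 3.64 CPM (0.43, SE 0.08, adjusted p = 0.000611). PPP1R16B, a relative of the PPP1R12 targeting subunits known from endothelium, fell from 6.66 ± 0.662 to 3.56 ± 0.909 CPM (-0.90, SE 0.16, adjusted p = 0.000403). PPP1R1B, the inhibitor DARPP-32 of the striatum, passed both thresholds on 6, 13 and 5 counts in WT and 33, 15 and 14 in MUL1(-/-) (1.43, SE 0.47, adjusted p = 0.0244). That call was lost with DESeq2 and without WT replicate 1, WT replicate 3 or MUL1(-/-) replicate 1.

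Of 20 kinases that act on myosin, the targeting subunits or the inhibitors, 5 rose and 3 fell. MYLK4, a relative of MYLK, passed both thresholds at a low level, with 33, 39 and 32 counts in WT and 83, 67 and 63 in MUL1(-/-) (1.10, SE 0.23, adjusted p = 0.00132), and not without MUL1(-/-) replicate 1. PAK2, a kinase driven by Rac and Cdc42, rose from 56.6 ± 1.52 to 92.5 ± 6.62 CPM (0.71, SE 0.07, adjusted p = 2.73e-06). DAPK3, also called ZIP kinase, which phosphorylates myosin light chain and MYPT1, rose from 39.6 ± 3.00 to 60.2 ± 1.76 CPM (0.60, SE 0.08, adjusted p = 1.81e-05). PRKG1, the cyclic GMP-dependent kinase that acts with MYPT1 in relaxation, fell from 21.3 ± 2.28 to 13.7 ± 0.364 CPM (-0.63, SE 0.09, adjusted p = 8.57e-05). The list's median was 0.035.

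Among 11 genes of myosin II chains and calmodulin, 3 rose and 3 fell. CALM3, 1 of the 3 calmodulin genes, whose product activates MYLK, rose from 385 ± 23.8 to 683 ± 43.4 CPM (0.83, SE 0.07, adjusted p = 5.07e-07). MYH10, the heavy chain of non-muscle myosin IIB, rose from 227 ± 8.41 to 335 ± 9.45 CPM (0.56, SE 0.06, adjusted p = 7.03e-06). MYH14, the heavy chain of myosin IIC, fell from 53.3 ± 4.85 to 36.0 ± 7.47 CPM (-0.57, SE 0.12, adjusted p = 0.00190). MYL9, the smooth muscle form of the regulatory light chain, was the gene past both thresholds, on 23, 30 and 39 counts in WT and 9, 6 and 14 in MUL1(-/-) (-1.59, SE 0.39, adjusted p = 0.00457).

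The 15 smooth muscle genes included 5 that rose and 3 that fell. The pair past both thresholds was close to absent in every library. ACTG2, smooth muscle gamma actin, had 9, 4 and 5 counts in WT and 13, 25 and 29 in MUL1(-/-) (1.94, SE 0.46, adjusted p = 0.00379). MYOCD, myocardin, the cofactor of serum response factor in smooth muscle, had 10, 6 and 6 counts in WT and 28, 29 and 12 in MUL1(-/-) (1.70, SE 0.44, adjusted p = 0.00696). At higher levels, TPM2, a tropomyosin, fell from 32.8 ± 2.65 to 24.5 ± 0.529 CPM (-0.42, SE 0.08, adjusted p = 0.000711), and MRTFA, a cofactor of serum response factor that answers to actin, rose from 30.8 ± 2.12 to 39.6 ± 0.833 CPM (0.36, SE 0.08, adjusted p = 0.00157).

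Of 7 genes for other substrates of ROCK1 or the phosphatase, or for cofilin, 1 fell and none rose. This was LIMK1, a kinase of cofilin, from 49.5 ± 2.89 to 40.8 ± 1.38 CPM (-0.28, SE 0.07, adjusted p = 0.00720). EZR, ADD1 and LIMK2 were at 0.13, 0.14 and 0.13 on the log2 scale and did not pass, with adjusted p = 0.119, 0.119 and 0.223.

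**Figure D3:**
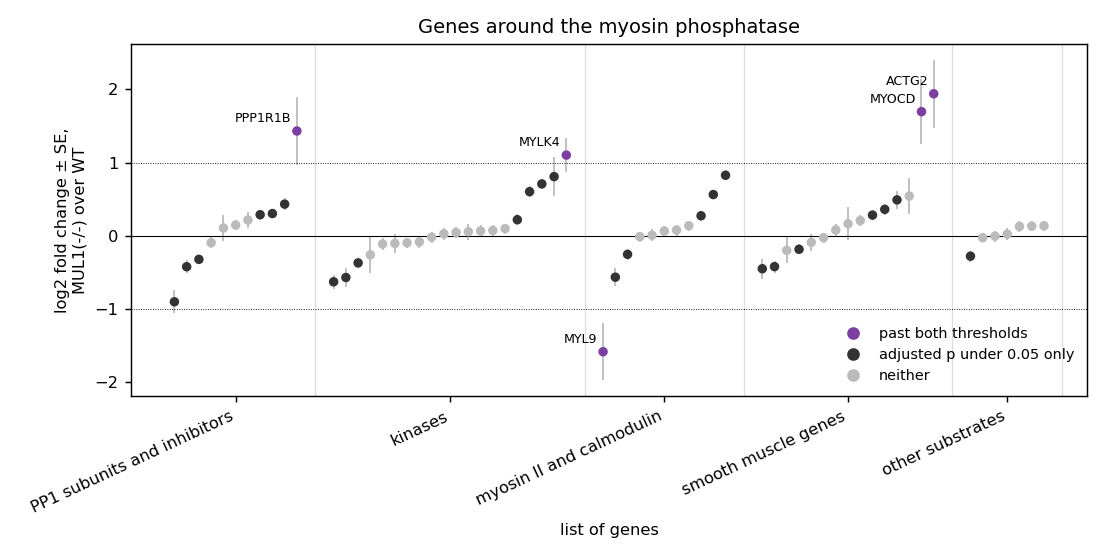
Log2 fold change with its SE, MUL1(-/-) over WT (vertical axis), of 64 genes around the myosin phosphatase in 5 lists (horizontal axis), sorted within each list. The 5 named genes pass both thresholds, from MYL9 at -1.59 to ACTG2 at 1.94, and most points lie within 0.5 of 0 in each list.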

How the data were processed

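The 6 RNA-seq libraries, 3 WT and 3 MUL1(-/-), were grouped by the genotype in the sample labels. The authors deposited raw counts per exon bin of a flattened annotation, without normalization. The submitters' processing notes name GRCh38, Trimmomatic 0.36 and STAR 2.5.2b, and the counting program is not given in the sources used here. Bins were summed to give 1 count per gene, since the files held bins where counts per gene had been assumed. Bins of joined identifiers went to the 1 gene whose GENCODE 29 exon covers them, and bins covered by several (4.36% of counts) to none. That a read touching several bins counts in each is inferred from the counts of very short bins. Genes were tested with edgeR 4.0.16 (R 4.3.3, TMM, filterByExpr, quasi-likelihood test, Benjamini-Hochberg), and bins with edgeR's diffSpliceDGE, which compares a bin with the rest of its gene. SE is the log2 fold change over the square root of F. DESeq2 1.42.0 and limma 3.58.1 (voom) were alternatives. Both tests were also run on simulated data. The genes and bins changed there had more counts than the sparse ones described here, which those runs do not cover.

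Each library counted as 1 sample. Replicates of a genotype varied more than sampling of reads alone gives. Chi-square divided by degrees of freedom, on each gene's most counted bin, was 2.95 to 10.8 between pairs of libraries. Upstream sequence came from RefSeq (GRCh38.p14). The named genes were MUL1, the 10 members and, per list, each gene past both thresholds and then those of smallest p until 4 were named. SPINT2, KCNK6, GP6, PTPRH and ENSG00000267149 were named after their values were seen. A further list of genes is not reported here. The members and lists were chosen with earlier results of these data known. The alternatives were other normalizations, filters, tools, definitions of a gene's count, a replicate block and each library left out.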

Additional observations from a re-analysis of the deposited data

How the results depend on the processing

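Each result was recomputed under up to 17 alternatives. The members called lower, PPP1R14A, numbered 1 in all 17, of which 1 used the adjusted p alone and dropped the fold threshold. With the adjusted p alone, 3 members were higher. Members passing both thresholds as higher numbered 1 in place of 2 with DESeq2, with at least 1 CPM in at least 3 samples, with the replicate block and with the most counted bin. They numbered 0 to 2 with a library left out, 0 being without WT replicate 2. PPP1R14D had a log2 fold change of 1.02 with DESeq2, 1.04 with the replicate block and 0.71 to 1.28 with a library left out. PPP1R12C ranged from 0.96 to 1.15 with a library left out. PPP1R14C was reversed to 0.058 with library totals and 0.018 with no filter, and ranged from -0.049 to 0.032 with a library left out. PPP1R12A and ROCK1 were reversed to 0.011 with library totals, PPP1R12A ranged from -0.096 to 0.011 and PPP1CB from -0.097 to 0.00142 with a library left out. The genes of the 5 lists passing as higher (4) numbered 0 with the CPM filter, 1 with the most counted bin, 17 with the adjusted p alone and 2 to 4 with a library left out, and those passing as lower (1) numbered 0, 0, 13 and 1 to 2. The most counted bin gave shares of 26.9% for PPP1R14A in WT, and 55.9% and 73.5% for PPP1R12C in WT and MUL1(-/-), and counts without length scaling 13.1%, 30.0% and 48.5%. The median of the neighbours of PPP1R14A was -0.19 with 5 genes on each side. The cause of these shifts was not tested, other than that the CPM filter and the most counted bin left fewer of the sparse genes to test. The bins of changed usage numbered 4 to 5.

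The labels do not say that the replicate numbers pair the samples, and the main test did not use them as pairs. Deviations of same-numbered libraries correlated at -0.068, 0.18 and 0.11 over 15858 genes. Differently numbered libraries were not compared in this way, so these values do not settle whether the samples are paired. With the replicate block PPP1R14D lost its call, the bins of changed usage numbered 4 in place of 5, and the calls of the other members and of the 5 list genes past both thresholds did not change. Levels under about 0.3 CPM, those of PPP1R14D, PPP1R1B, MYL9, ACTG2, MYOCD and of PPP1R14A in MUL1(-/-), rest on 4 to 39 counts a library and on bins that may count a read more than once.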
